A study of Mus musculus with 6 samples.

Results

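The genes described here carry the names of mitochondrial ribosomal proteins. They were chosen by name: a gene was a member when its symbol in any of 4 deposited peak tables was Mrpl or Mrps followed by a number and at most 1 letter. This gave 72 of the 20691 genes named in the tables, with 45 Mrpl and 27 Mrps symbols on 17 chromosomes. By symbol, 47 were counted with the large subunit, Mrps18a and Mrps30 included because their products sit there, and 25 with the small subunit. Whether the product of every member is part of the ribosome was not checked. The cells were EML, a line of mouse blood precursors of the strain B6D2F1 grown in suspension, from which lin-CD34+ and lin-CD34- cells were separated with magnetic beads and by flow cytometry. Chromatin immunoprecipitation of the transcription factors STAT3 and SOX4 and ATAC-seq, which cuts accessible DNA with a transposase, were done in lin-CD34+ cells, and immunoprecipitation of GABPa in lin-CD34- cells. Each of these 4 groups was 1 library of sorted cells with no named genotype or drug, the immunoprecipitations after formaldehyde crosslinking. A control library of each population, titled input and labelled IgG, has no peak table used here. Differences between libraries therefore have no replicate error, no test between them was possible, and GABPa differed from the others in population as well as antibody.

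Mitochondrial ribosomes make the few proteins encoded by mitochondrial DNA, which are subunits of the respiratory chain and ATP synthase. Their own proteins are encoded in the nucleus, made in the cytosol and imported; the small subunit reads the messenger RNA and the large subunit joins the amino acids. GABPa is the DNA-binding subunit of GABP, an ETS-family factor that binds sites around the letters GGAA and is known for binding promoters of nuclear genes for mitochondrial proteins. STAT3 is activated by cytokines and binds palindromes of the form TTCCNGGAA, and SOX4 is an HMG-box factor.

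In the ATAC table all 6 precursor genes examined as a check of the population (Cd34, Kit, Gata2, Tal1, Runx1, Lmo2) had an open interval within 1000 bp of a transcription start site (TSS). Of all 20691 genes 68.2% had one as well, so this check separates cell types only weakly. Library totals were not used; the depth behind a peak is its tags (reads), with medians of 30 in 885 STAT3 peaks, 10 in 3016 SOX4 peaks and 14 in 2525 GABPa peaks. The ATAC table lists 195295 entries at 143365 distinct intervals without any score, so ATAC results are presence, position and width.

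Most promoters of mitochondrial ribosomal protein genes were open in lin-CD34+ cells, and few carried a listed factor peak. By the authors' distances, a peak counted as a promoter peak when at most 1000 bp separated its centre from a TSS. An ATAC promoter peak was listed for 61 of the 72 genes (84.7%, exact 95% interval 74.3 to 92.1), where 68.2% of all genes had one. GABPa promoter peaks were listed for 5 genes (6.94%, 2.29 to 15.5; all genes 1.54%), STAT3 promoter peaks for 4 (5.56%, 1.53 to 13.6; all genes 1.98%) and a SOX4 promoter peak for 1 (1.39%, 0.0352 to 7.50; all genes 0.764%). At any distance the counts were 8 for GABPa (all genes 9.59%), 4 for STAT3 (4.12%) and 10 for SOX4 (12.5%), and 70 genes had an ATAC interval (98.4%). The 22 factor peaks belonged to 19 genes, and 53 genes had none. At least 1 factor had a promoter peak at 9 genes, where 3.92% of all genes had one. The intervals cover counting error only, and no test was made of the shares against other genes.

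**Figure D1:**
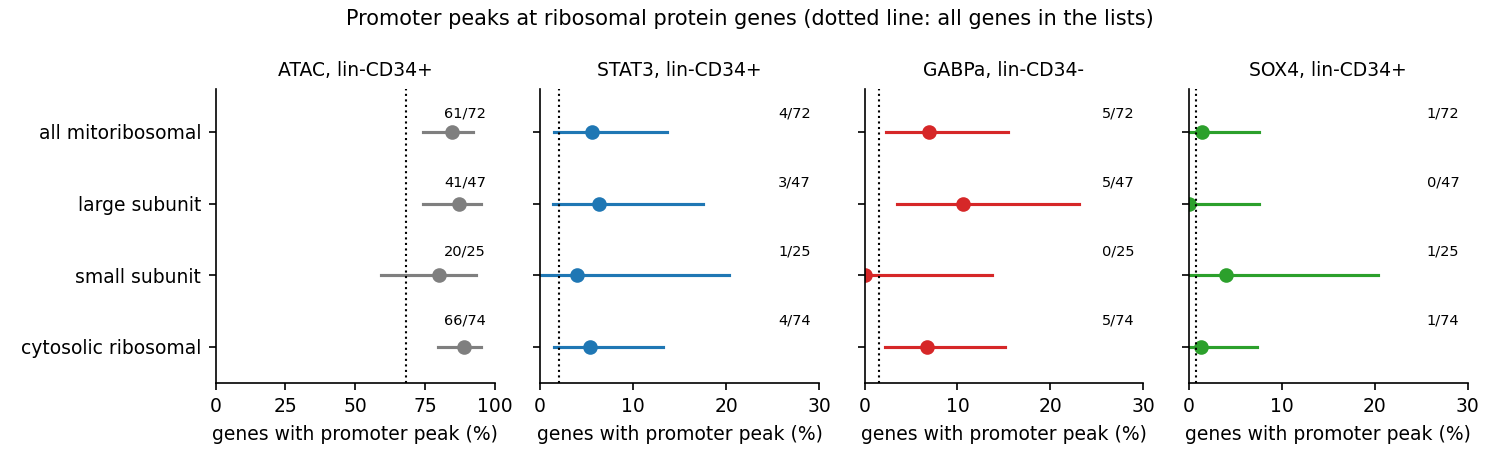
Share of genes with a promoter peak (horizontal axis, percent; 0 to 100 for ATAC and 0 to 30 for the factors) for all mitochondrial ribosomal protein genes, each subunit and cytosolic ribosomal protein genes, in 4 single libraries. Points are shares, bars exact 95% intervals and dotted lines the share among all 20691 genes; 61 of 72 genes had an open promoter, 5 a GABPa, 4 a STAT3 and 1 a SOX4 promoter peak.

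The large subunit held all 5 genes with a GABPa promoter peak, 3 of the 4 with a STAT3 promoter peak and 41 of the 61 open promoters. Of the 25 small subunit genes 20 had an open promoter, Mrps18b had the STAT3 peak and Mrps15 the SOX4 peak. No GABPa promoter peak was listed for a small subunit gene (upper 95% limit 13.7%), and the interval for the large subunit, 3.55 to 23.1%, overlaps that range. By descent, from a list of names, 46 genes were counted as encoding proteins with a counterpart in the bacterial ribosome. The other 26 were counted as encoding proteins found in mitochondrial ribosomes alone. Promoters were open in 39 of the 46 and 22 of the 26, GABPa promoter peaks lay at 4 and 1, and STAT3 promoter peaks at 2 and 2.

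Mrpl30 had the factor peak with the most tags and the highest score of the group and the only listed promoter peaks of both STAT3 and GABPa, a pair found at 0.251% of all genes. Its product is a large subunit protein with a bacterial counterpart. The GABPa peak in lin-CD34- cells (chr1:37889949-37891167, mm10) held 194 tags at a fold enrichment of 43.1, which ranked 5 of 2525 by score, 4 by tags and 31 by fold. The STAT3 peak in lin-CD34+ cells (chr1:37890341-37890707) lay wholly inside it, with 65 tags and a fold of 20.4, and ranked 130 of 885 by score and 536 by fold. The summits, the positions of highest signal by the authors, lay 179 bp (GABPa) and 49 bp (STAT3) upstream of the TSS the authors used, which is 76 bp downstream of the RefSeq start. The open interval that covered the whole STAT3 peak and 58.1% of the GABPa peak was listed for Mitd1. That gene starts on the other strand, 66 bp upstream of the RefSeq start of Mrpl30, and no ATAC entry was listed for Mrpl30 itself.

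Mrpl33, Mrpl20, Mrpl28 and Mrpl48, all of the large subunit, had the other GABPa promoter peaks. Mrpl33 had 51 tags, a fold of 35.1 and rank 100 by score (chr5:31612452-31614332), in a peak 1881 bp wide that began far upstream and still covered the TSS. Mrpl20 had 42 tags and a fold of 15.9 at rank 368 (chr4:155801731-155804163, 2433 bp wide; a RefSeq start lies 740 bp upstream of the one the authors used), and Mrpl28 26 tags and a fold of 12.9 at rank 279 (chr17:26122934-26123749). These 3 genes and Mrpl30 were above the list's median score of 99.7. Mrpl48 was below it, scoring 83.3 at rank 1622 from 16 tags and a fold of 17.2 (chr7:100607362-100608965). All 5 peaks covered the TSS from which the authors measured them, and their centres lay between −671 and 5 bp from it. For Mrpl48 the authors' annotation names the promoter of NR_003559, a non-coding RefSeq transcript.

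**Figure D2:**
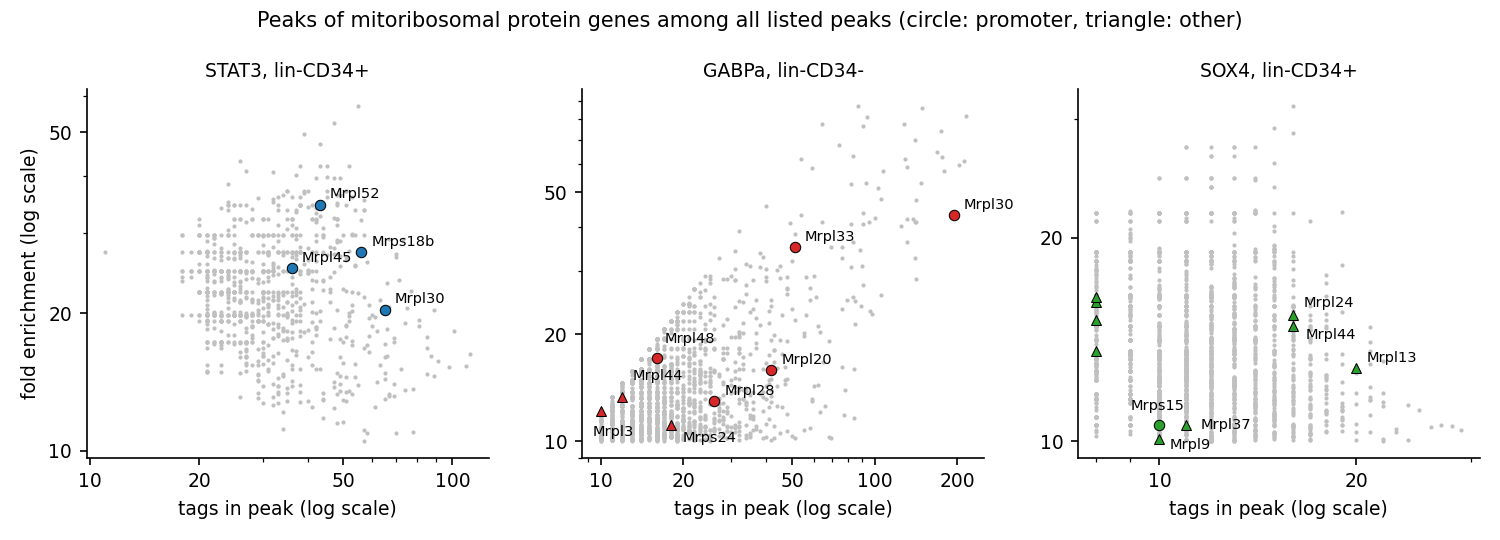
Tags per peak (horizontal, log scale) against fold enrichment (vertical, log scale) for every listed peak (grey) and the peaks of mitochondrial ribosomal protein genes (coloured; circles promoter peaks, triangles others), 1 library per panel. The Mrpl30 GABPa peak sits at 194 tags and the other GABPa peaks of the group at 10 to 51, while the 4 unnamed SOX4 triangles hold 8 tags each.

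STAT3 promoter peaks in lin-CD34+ cells lay at Mrps18b, Mrpl52, Mrpl30 and Mrpl45, and STAT3 had no other peak in the group. Mrps18b, a small subunit gene, had 56 tags, a fold of 27.2 and rank 16 of 885 by score (chr17:35916286-35916827). Its summit lay 396 bp upstream of the Mrps18b TSS the authors used. Their annotation of the same peak names the promoter of Ppp1r10, a phosphatase regulator gene on the other strand. Ppp1r10 starts 756 bp upstream of the RefSeq start of Mrps18b, which is 71 bp upstream of the authors' TSS. Mrpl52, a large subunit gene, had 43 tags, a fold of 34.6 and rank 53 (chr14:54426706-54427058). Mrpl45, whose product sits near the exit of the large subunit at the inner membrane, had 36 tags, a fold of 25.2 and rank 339 (chr11:97315471-97315844). All 4 peaks scored above the list's median of 92.5, covered the TSS, and lay wholly inside an open interval of the same population. Of all STAT3 peaks 78.4% overlapped an open interval, and of the promoter peaks 96.4%.

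Because neighbouring genes can share a promoter, each gene start was also searched for peaks listed under another gene. This added 3 factor peaks within 1000 bp of a member's TSS, for 6 genes with STAT3 (2.43% of the 19841 genes whose starts could be placed), 6 with GABPa (2.24%) and 1 with SOX4 (0.978%). The Mrpl10 TSS lay inside a GABPa peak listed for Lrrc46 (chr11:97040868-97042078), which had 141 tags, a fold of 28.5 and a score of 1039. The Mrpl32 TSS lay inside a STAT3 peak listed for the proteasome gene Psma2 (chr13:14612996-14613348), with 30 tags and a fold of 24.7; Psma2 starts 205 bp upstream on the other strand. At Mrpl48 a STAT3 peak listed for Rab6a (chr7:100607272-100607526), with 25 tags and a fold of 29.7, overlapped the GABPa peak listed for Mrpl48 and lay 96 bp from a Mrpl48 start. By position Mrpl30 and Mrpl48 thus had peaks of both factors, which came from different populations. At Mrpl48 both peaks overlapped an open interval of 1291 bp listed for Rab6a. Another Mrpl48 start the authors used, chr7:100583130, lay inside an open interval listed for Mrpl48, with no factor peak within 1000 bp. Whether such a peak acts on 1 gene of a pair or on both was not tested.

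**Figure D3:**
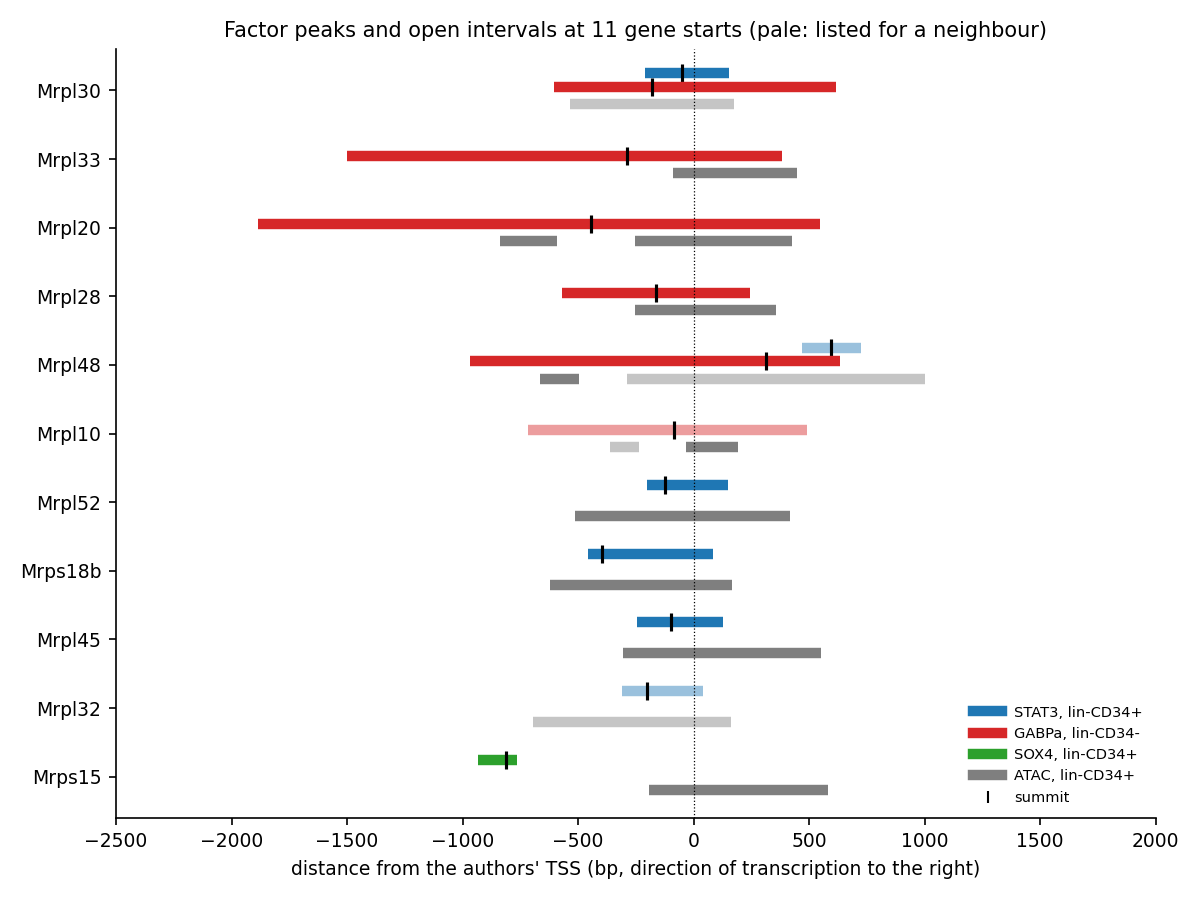
Factor peaks and ATAC intervals at the 11 gene starts of the group with a factor peak within 1000 bp; the horizontal axis is the distance in bp from the TSS the authors used, with transcription to the right. Coloured bars are intervals, black ticks factor summits and pale bars intervals listed for a neighbouring gene; GABPa peaks at Mrpl33 and Mrpl20 extend farthest upstream, and the SOX4 peak at Mrps15 does not meet an open interval.

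The promoter sequences of 9 of the 10 genes with a STAT3 or GABPa peak at a start are shown, by assignment or by position, so that those with and without matching letters can be compared. Mrpl48 is left out because it has several RefSeq starts and none at the start from which the authors measured its peak. At its RefSeq starts inside the GABPa peak, chr7:100607622 and chr7:100608301, the same stretch held none of the letters marked below. Mrpl20 is shown although its RefSeq start lies 740 bp upstream of the authors' start. Its stretch ends before the GABPa summit, which lay 444 bp upstream of the authors' start. They are RefSeq sequences of build GRCm38.p6, the assembly named mm10, from 150 bases before the RefSeq TSS to 30 bases from it, written 5′ to 3′ on the gene's strand. Capitals mark matches on either strand to the ETS letters CCGGAAG, to the shorter core of these letters, CCGGAA, to the STAT letters TTCCNGGAA and to the NRF1 letters GCGCATGCG. The STAT letters overlap the ETS core where their centre is C or G.

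Mrpl30, chr1:37890327-37890506, plus strand: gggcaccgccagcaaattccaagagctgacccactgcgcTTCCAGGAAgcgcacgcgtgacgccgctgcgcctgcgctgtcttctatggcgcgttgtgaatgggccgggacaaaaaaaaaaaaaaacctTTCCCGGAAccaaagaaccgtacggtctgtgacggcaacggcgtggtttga

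Mrpl33, chr5:31613801-31613980, plus strand: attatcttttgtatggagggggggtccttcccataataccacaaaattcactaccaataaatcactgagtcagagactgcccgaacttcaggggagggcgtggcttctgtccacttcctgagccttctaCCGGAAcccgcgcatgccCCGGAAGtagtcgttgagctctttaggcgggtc

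Mrpl20, chr4:155802728-155802907, plus strand: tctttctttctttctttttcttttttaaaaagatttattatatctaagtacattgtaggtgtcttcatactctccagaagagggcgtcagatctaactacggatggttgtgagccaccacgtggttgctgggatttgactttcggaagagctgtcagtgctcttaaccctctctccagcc

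Mrpl28, chr17:26123353-26123532, plus strand: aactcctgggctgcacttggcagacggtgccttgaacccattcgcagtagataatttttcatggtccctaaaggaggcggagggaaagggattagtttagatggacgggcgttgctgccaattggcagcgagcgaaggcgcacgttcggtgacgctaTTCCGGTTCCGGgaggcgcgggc

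Mrpl10, chr11:97041432-97041611, plus strand: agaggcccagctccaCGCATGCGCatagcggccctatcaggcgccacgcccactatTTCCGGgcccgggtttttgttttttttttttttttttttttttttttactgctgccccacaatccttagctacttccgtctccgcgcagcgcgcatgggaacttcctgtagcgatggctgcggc

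Mrpl52, chr14:54426759-54426938, plus strand: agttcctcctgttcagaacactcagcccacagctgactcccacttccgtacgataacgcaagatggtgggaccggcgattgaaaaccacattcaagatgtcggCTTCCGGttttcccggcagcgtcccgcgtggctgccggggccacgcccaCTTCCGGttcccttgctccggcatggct

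Mrps18b, chr17:35916411-35916590, minus strand: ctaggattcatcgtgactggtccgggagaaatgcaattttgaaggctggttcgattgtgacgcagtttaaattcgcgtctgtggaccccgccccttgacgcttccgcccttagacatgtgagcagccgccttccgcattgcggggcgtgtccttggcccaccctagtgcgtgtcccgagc

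Mrpl45, chr11:97315566-97315745, plus strand: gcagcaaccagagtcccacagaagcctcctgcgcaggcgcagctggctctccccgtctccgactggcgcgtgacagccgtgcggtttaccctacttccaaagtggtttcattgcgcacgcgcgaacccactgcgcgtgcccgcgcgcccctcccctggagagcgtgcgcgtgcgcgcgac

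Mrpl32, chr13:14613008-14613187, minus strand: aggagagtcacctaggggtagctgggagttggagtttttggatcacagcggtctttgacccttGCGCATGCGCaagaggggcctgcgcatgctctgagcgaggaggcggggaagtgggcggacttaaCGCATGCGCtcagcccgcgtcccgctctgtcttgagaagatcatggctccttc

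At Mrpl30 the capitals are both STAT matches, at −111 and −21 from the RefSeq TSS, and the second holds the ETS core. The GABPa summit fell on the end of the first match, and the STAT3 summit lay 40 bp from the second. Mrpl33 has the core at −21 and the full ETS letters at −3, 267 and 285 bp from its GABPa summit. Mrpl28 has the core at positions 8 and 14, back to back, and its GABPa summit was 168 bp away. Mrpl10 has the core at −94, 6 bp from the summit of the GABPa peak listed for Lrrc46, and the NRF1 letters at −135. Mrpl52, with a STAT3 peak, has the ETS letters at −47 and 3 and no STAT match. Mrpl45, also with a STAT3 peak, has none of these letters in the stretch shown, and neither has Mrpl20. Mrps18b, with the STAT3 peak of the highest score in the group, has none in the stretch shown either; just outside it the NRF1 letters start at −224, 101 bp from the STAT3 summit, and the ETS letters at 44, 368 bp from it. Mrpl32 has NRF1 matches at −87 and −86, which overlap on opposite strands, and at −23, 114 to 178 bp from the summit of the STAT3 peak listed for Psma2. Nearer to that summit, upstream of the stretch shown, Mrpl32 has the ETS core at −231, 25 bp away, and the YY1 letters AAGATGGC at −242, 34 bp away. The GABPa summits at Mrpl33 and Mrpl20 and the STAT3 summit at Mrps18b lay outside the 300 bases available per promoter. The sequence under these summits was therefore not searched. A match describes letters and is not a site shown to be bound.

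Across the group, promoters of 63 genes were in the RefSeq table, each 300 bases from 250 before to 50 after the start. The ETS letters CCGGAAG were in 23 of the 63 (36.5%), in 9.93% of all 27025 symbols in the table and in 16.7% of the 10480 symbols with an open promoter. The NRF1 letters were in 7 (11.1%; 1.95% of all and 3.51% of open), and the YY1 letters AAGATGGC in 10 (15.9%; 3.19% and 4.47%). The STAT letters were in 2, Mrpl30 and Mrpl50 (3.17%; 1.35% of all and 1.48% of open). The SOX letters ACAAAG or ACAATG were in 14 (22.2%; 31.7% and 24.9%). ETS letters were in 2 of the 5 genes with a GABPa promoter peak, Mrpl33 and Mrpl48. The Mrpl48 match was at another start of the gene, 24519 bp from its GABPa summit. The letters were also in 19 of the 54 genes without any factor promoter peak, 35.2%. Among all genes with a GABPa promoter peak 36.7% had them, and among those with a STAT3 promoter peak 37.3%. With the core CCGGAA alone, searched after the data were seen, the counts were 36 of 63 genes in the group (57.1%), 16.7% of all symbols and 26.6% of those with an open promoter. Base composition was not matched: member promoters had a median GC content of 58.0% and 21 CG pairs, all promoters 52.7% and 7, and those of genes with an open promoter 59.7% and 18.

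**Figure D4:**
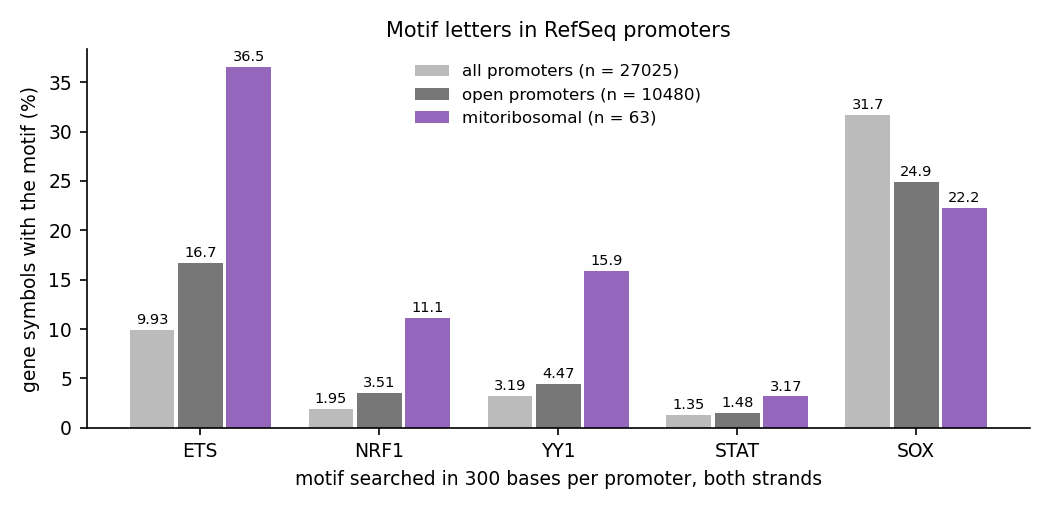
Share of gene symbols (vertical axis, percent) whose RefSeq promoter of 300 bases holds each motif on either strand, for all 27025 symbols, the 10480 with an ATAC promoter peak and the 63 mitochondrial ribosomal protein genes in the table. ETS letters were in 36.5% of the group and 9.93% of all; the bars are counts of letters without error bars.

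SOX4 peaks of the group lay mostly away from promoters, met no open interval and had the same median of 10 tags as the whole SOX4 list. The whole list also lay mostly away from promoters, with 160 promoter peaks among 3016. The single promoter peak, at Mrps15 of the small subunit, had 10 tags and a fold of 10.6, ranked 2595 of 3016 by score and lay 848 bp upstream of the TSS (chr4:126045996-126046164), 569 bp from the nearest open interval. Mrpl24 had the SOX4 peak of the group with the highest score, rank 22 with 16 tags and a fold of 15.4, in an intergenic position 1328 bp upstream (chr3:87918124-87918309). A peak at Mrpl9 lay 2705 bp upstream with 10 tags, and one at Mrpl32 lay 3043 bp downstream of the TSS, at the gene's end, with 8 tags. Mrps6, Mrps36 and Mrpl45 had SOX4 peaks of 8 tags each in their own introns. Of the 10 SOX4 peaks 3 scored at or above the list's median of 64.9. Annotated repeats held 3 of the 10, and 33.95% of all SOX4 peaks. None of the 10 overlapped an open interval, where 5.4% of all SOX4 peaks and 23.8% of SOX4 promoter peaks did. The gaps to the nearest open interval were 178 to 2806 bp.

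Several distal peaks were assigned to a ribosomal gene as the nearest start while lying in another gene. Since no listed centre lies over 5000 bp upstream of its TSS, peaks farther away than that are all downstream. The SOX4 peak of Mrpl13 (20 tags, fold 12.8, 62729 bp from the TSS) was in intron 42 of Col14a1, a collagen gene, and that of Mrpl37 (11 tags) in intron 5 of Ssbp3. Mrpl44, whose product resembles RNase III, had a SOX4 peak (16 tags) in intron 4 of the protease inhibitor gene Serpine2 and a GABPa peak (12 tags, fold 13.3) at the end of the same gene. The GABPa peak of Mrps24 (18 tags, fold 11.1) was in a LINE-1 element in an intron of Ankrd36, 40473 bp from the TSS. The GABPa peak of Mrpl3 (10 tags, fold 12.1) was in a SINE element in an intron of Mrpl3 itself. Annotated repeats held these 2 of the group's 8 GABPa peaks, and 50.1% of all GABPa peaks. None of the 3 GABPa peaks away from promoters overlapped an open interval of lin-CD34+ cells, while all 5 promoter peaks did (all GABPa peaks 16.8%, all GABPa promoter peaks 68.9%). With at least 50% of the peak covered, 7 of the 22 factor peaks overlapped an open interval instead of 9. The peaks lost were the wide GABPa peaks of Mrpl33 and Mrpl20, the latter covered over 38.2% of its length.

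Most open intervals at these promoters spanned a TSS. The 61 genes had 79 distinct promoter intervals: 47 genes had 1, 11 had 2, Mrpl48 and Mrps25 had 3 and Mrps23 had 4. Of the 79, 60 spanned a TSS of their gene, at 59 genes and with a median width of 692 bp. The other 19 spanned none and had a median width of 143 bp (73 to 379). Neither the share that spans a TSS nor the number per gene was computed over all 20148 promoter intervals, so neither is shown to be particular to the group. The median width of all 79 was 625 bp (73 to 1387), where that of all 20148 promoter intervals was 316 bp and that of 83 cytosolic ribosomal promoter intervals 667 bp. The widest, at Mrpl2, spanned 1387 bp and was repeated in 8 entries of the table; Mrpl51, Mrpl37 and Mrps30 followed with 1210, 1182 and 1152 bp. Entries sharing an interval were found for 61 of the 79 (77.2%) and for 51.0% of all promoter intervals, and no source used here says what a repeated entry stands for. The median centre lay 106 bp downstream of the TSS. The limit of 1000 bp fell between intervals of Mrps25 and Mrpl23, with centres 986 and 896 bp downstream, and intervals of Mrpl12 and Mrpl53, with centres at −1020 and −1230 bp.

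**Figure D5:**
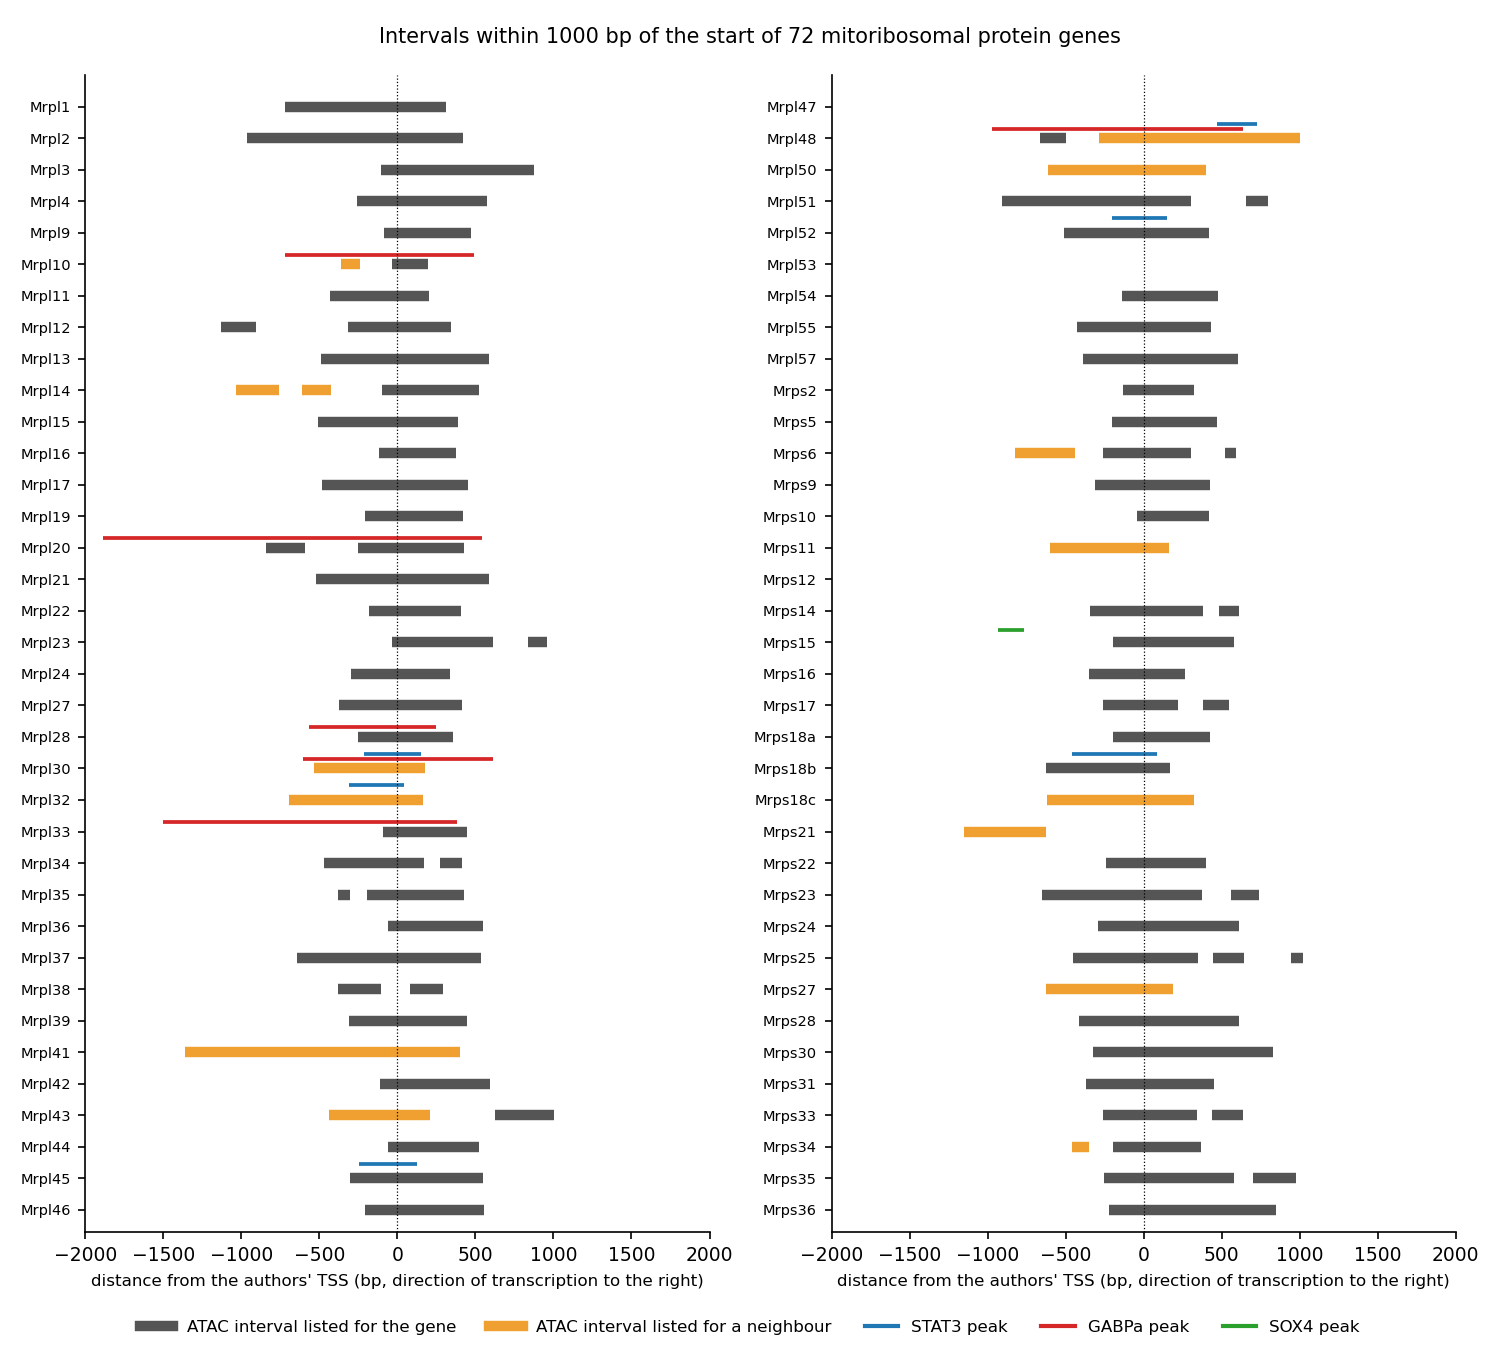
Intervals that reach within 1000 bp of a TSS of each of the 72 genes; the horizontal axis is the distance in bp from the authors' TSS, with transcription to the right. A single start per gene is drawn. Grey bars are ATAC intervals listed for the gene, orange bars those listed for a neighbour and thin coloured bars factor peaks; Mrpl47, Mrpl53 and Mrps12 have no interval, and the Mrps21 interval covers a RefSeq start 895 bp from the one drawn.

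Of the 11 genes without an assigned open promoter, 8 had an open interval within 1000 bp of a start that the table lists for a neighbour. These were Mrpl30 (Mitd1), Mrpl32 (Psma2), Mrpl41 (Pnpla7), Mrpl50 (Zfp189), Mrps11 (Mrpl46), Mrps18c (Helq), Mrps21 (C920021L13Rik) and Mrps27 (Ptcd2). Mrps11 and Mrpl46, one gene of each subunit, start 42 bp apart on opposite strands and shared 1 open interval of 763 bp. By position, where any interval overlapping 1000 bp either side of any start counts, 69 of the 72 genes thus had an open promoter, against 73.1% of the 19841 genes. In 68 an interval covered a TSS, against 47% of those genes. The other 3 were Mrpl47, Mrpl53 and Mrps12, with the nearest assigned interval centred 5805 bp, −1230 bp and 5443 bp from the TSS. Mrpl38 had intervals on either side of its TSS but none over it.

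Away from promoters, 182 further open intervals were assigned to 48 of the 72 genes, where 85.8% of all genes had such an interval. Of the 182, 136 were in introns and 7 intergenic. No listed ATAC centre lay over 5000 bp upstream of its TSS, while the farthest downstream in the group lay at 118042 bp. That limit restricts which classes a far interval can have, and class shares over all listed intervals were not computed. Of the 175 that the annotation places in or at the end of a gene, 72 were in a gene other than the one they were assigned to. That share was not computed over all listed intervals either. Mrps28 had the most intervals in all, 21, and its 20 distal ones were all in its own transcript. Mrpl37 followed with 18, of which 16 lay outside it or in the neighbouring Ssbp3, then Mrpl35 with 13, Mrpl13 with 12 and Mrps6 with 11. At Mrpl35 10 distal intervals were not in its own transcript, with Reep1 as the other host, and at Mrpl13 9, with Col14a1. At Mrps6 all 9 distal intervals were in its own transcript. The median width of the distal intervals was 125 bp, against 123 bp for all other intervals of the table. With promoter intervals included, 13.8% of the group's 261 intervals were in annotated repeats, where 20.99% of all intervals were. These shares come from unlike mixes: 79 of the 261 were promoter intervals, and 20148 of all 143365. Repeat shares were not compared for distal intervals alone.

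Other genes of mitochondrial translation were counted from lists of names. All 6 mitochondrial ribosomal proteins with other symbols found in the tables, among them Dap3 and Ptcd3, had an open promoter and no factor promoter peak. The same held for all 9 translation factors, among them the elongation factor genes Tufm and Gfm1. Among all genes 68.2% had an open promoter and 3.92% a promoter peak of at least 1 factor. For a single factor the upper 95% limits were 45.9% for the 6 genes and 33.6% for the 9, so these lists are too short to differ from that share. Of 17 ribosome assembly genes 14 had an open promoter (82.4%, 56.6 to 96.2). Ngrn had a STAT3 promoter peak and Mtg1, a GTPase gene, a GABPa promoter peak. The 74 cytosolic ribosomal protein genes had open promoters in 66 cases (89.2%, 79.8 to 95.2), STAT3 promoter peaks in 4 (5.41%), GABPa promoter peaks in 5 (6.76%) and a SOX4 promoter peak in 1. In each of the 4 tables the share of either set lay inside the interval of the other.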

How the data were processed

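Peak tables of 4 libraries from EML cells were analysed. Per the submitters' processing notes, the build was mm10 and the tools included MACS2, Picard, SAMtools, HOMER, Bowtie2 and CASAVA 1.7; their roles and settings are not stated. Tag counts, deposited as whole reads per peak, and the peak score, a p-value as −10 log10, are named so in the headers of the authors' tables. The deposited fold is the ratio over background, and the authors' false discovery rate is in percent. The control used in calling and any transposase shift: not given in the sources used here. In the tables, whose file names call them filtered, no fold is below 10 and no centre lies over 5000 bp upstream of its TSS, so absence from a table can reflect that filter. ATAC intervals repeated in several entries were counted once.

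Members were matched by symbol. Promoter peaks lay within 1000 bp of a TSS, and overlap needed 1 bp. Starts came from the RefSeq promoter table (63 genes) and from the authors' distances; for 61 of these 63 genes both fell within 100 bp. Shares carry Clopper-Pearson 95% intervals. With 1 library per group no test was made. Named genes were all members with a factor peak, those without an open promoter, the 5 with most open intervals, those beside the 1000 bp limit and those with a neighbour's factor peak at their start; other genes were named after their values were seen. Motif letters were searched on both strands; of promoters printed, 150 bases before and 30 after the start are given. Members, lists and rules were chosen with earlier results of these data known. Tools were Python 3.11.15, scipy 1.17.1, pandas 2.3.3, matplotlib 3.10.9 and numpy 2.4.6; the overlap and motif steps were tested on simulated data. Markers of mature lineages are not reported here.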

Additional observations from a re-analysis of the deposited data

How the results depend on the processing

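The STAT3 count of 4 genes with a promoter peak was unchanged with a window of 500 or 5000 bp, without annotated repeats, on autosomes and at scores above the median, and was 6 by position. The GABPa count of 5 became 3 with 500 bp, 8 at any distance, 4 above the median score and 6 by position. The SOX4 count of 1 became 0 with 500 bp, 4 with 5000 bp, 10 at any distance and 0 above the median score. The ATAC count of 61 ranged from 60 to 70 over its alternatives. Of the peaks assigned at any distance, 3 of 10 for SOX4 and 4 of 8 for GABPa had scores at or above the median. The 261 distinct ATAC intervals came from 486 entries. The promoters with ETS letters rose from 23 to 36 with the 6-letter core, a search added after seeing the data. These changes follow from how each alternative widens or narrows the choice of peaks or letters. No paired analysis was possible because each group held 1 library. Low tag counts, 8 to 20 in the group's SOX4 peaks, limit what those peaks can show, and a gene without a listed peak is not shown to be unbound.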

Other observations

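Starts of mitochondrial ribosomal protein genes often lay close to a gene on the other strand. Of the 63 genes in the RefSeq promoter table, 21 (33.3%) had another gene starting within 1000 bp upstream on the opposite strand, where 12.2% of all 27025 symbols, 14.3% of the 10480 symbols with an open promoter and 8 of 55 cytosolic ribosomal protein genes (14.5%) did. Several partners also encode mitochondrial proteins: Twnk, the mitochondrial helicase gene, 116 bp from Mrpl43, Sars2, the mitochondrial seryl-tRNA synthetase gene, 147 bp from Mrps12, and Ndufb5, of respiratory complex I, 308 bp from Mrpl47. These partners were named for what they encode, and other partners included Tmem63b, Klc4, Ighmbp2 and Zfp189. Partners with mitochondrial products were not counted, for this or any other set of genes. The promoter table is not complete, so partners may be missing, and all these pairs were noticed after the data were seen and were not tested.

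The RefSeq gene table holds 6 further symbols of the same form that none of the 4 tables used here names: Mrpl18, Mrpl40, Mrpl49, Mrpl58, Mrps7 and Mrps26. By position 5 of them had an open interval within 1000 bp of a start, listed for Tcp1 (Mrpl18), Hira (Mrpl40), Ict1 (Mrpl58), Gga3 (Mrps7) and 4930473A02Rik (Mrps26), and no listed interval was found there for Mrpl49. Ict1 is an older symbol of Mrpl58. No factor peak lay within 1000 bp of a start of these 6 genes.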
